A study of Mus musculus with 4 samples.

Results

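The genes described here are 58 genes that in the mouse are expressed mainly by hepatocytes, the parenchymal cells of the liver, and their signals were read in RNA of the heart. They were chosen by their known expression in the liver together with their measured signals on these arrays, above all the high signals on the array of the mice given NAC and CY, so the signals below are a description and no test was made on them. Probes were found by gene name. Of the 58 genes, 57 had at least 1 probe of that name, 38 of them a single probe and 19 several, which gave 80 probes of the 56605 probes and 37074 gene names on the array. Mup18, a major urinary protein, had no probe under that name. The 2 probes under its older symbol Mup6 were not well above background on any array, with normalised signals of up to 11.1.

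The hearts came from 6-week-old female *C57BL/6J* mice, and their RNA was read on 4 single-colour Agilent arrays of 1 slide, 1 array for each condition. The NS mice received intraperitoneal normal saline, and the CY mice received cyclophosphamide, an alkylating drug, at 400 mg/kg once a day for 2 days. Acrolein, a by-product of cyclophosphamide activation, was given at 5 mg/kg, and the NAC + CY mice received N-acetylcysteine, a thiol antioxidant, at 200 mg/kg with CY at 400 mg/kg, likewise once a day for 2 days. Per the design text and the methods, hearts were collected 3 h after the last dose, and no allele or transgene is named for any group. The sources are not uniform on these points, since other passages give a later day of collection and a younger age. The labels do not say whether an array held RNA of 1 mouse or of a pool, and with 1 array per condition the condition, the sample and the array cannot be told apart and no difference has a replicate check. The questions of the design were how CY, acrolein and NAC + CY differ from NS and how NAC + CY differs from CY. The first 3 of these comparisons share the NS array.

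Hepatocytes make most of the proteins dissolved in blood plasma, among them albumin, fibrinogen, the inhibitors of blood proteases and the late complement components. They also hold the enzymes that clear drugs, make urea and bile acids, and break down amino acids. In the healthy heart these genes are not known as products of the muscle cells, which express the genes of the sarcomere.

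A probe is called well above background here where the scanner software flagged its signal so, and signals are quantile-normalised fluorescence in arbitrary units. The share of all probes well above background ran from 47.1% (NS) to 50% (acrolein), and the lowest such signal was 10.6 on NS, 12.8 on CY and 6.04 on acrolein, and 7.65 on NAC + CY. A probe without that flag on one array allows only a bound. It is the brighter signal over the higher of the lowest flagged signal and the probe's own. Some probes without the flag read above that lowest signal, such as Apoa1 at 17.3 on NS, so the bounds are approximate. The SD between repeated spots of the same probe was 0.046 to 0.05 log2 units, which is an error within the array and leaves out the spread between hearts. No spot was saturated. The cardiomyocyte markers were read as a check of the tissue label. All 10 were well above background on all 4 arrays, and 0 were called between NAC + CY and CY. Against NS, 1 was called higher and 3 lower on CY, beside 3.38% and 2.81% of all genes. On NAC + CY 1 was called higher and 2 lower than on NS, beside 2.68% and 2.59%. Mybpc3, the cardiac myosin-binding protein C, read 206800 on NS, 132300 on CY and 194000 on acrolein, and 184500 on NAC + CY.

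Hepatocyte genes were detected mainly on the NAC + CY array. Of the 57 genes, 11 were well above background on NS. The number was 15 on CY and 14 on acrolein, and it was 48 on NAC + CY. For 30 genes the NAC + CY array was the only one with a probe well above background. Of the 80 probes, 41 (51.2%) were well above background on NAC + CY alone, beside 1.11% of all probes. No probe of these genes was well above background on another array and not on NAC + CY. A further 9 genes were well above background on no array: C8a, Cyp1a2, Cyp8b1, F9, Hal, Hgd, Mbl1, Plg and Ttc36. In 30 probes of 26 of the genes the NAC + CY signal was at least 4-fold above the bound of every other array, beside 0.101% of all probes, a 4-fold limit that was set after the values were seen. The detection of these genes was part of what chose them, so nothing is read from these shares. In whole tissue, more cells of a type and more RNA per cell cannot be told apart. Whether these RNAs were made in the heart or came with liver tissue in the NAC + CY sample was not tested, and this applies to every NAC + CY signal given here.

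**Figure D1:**
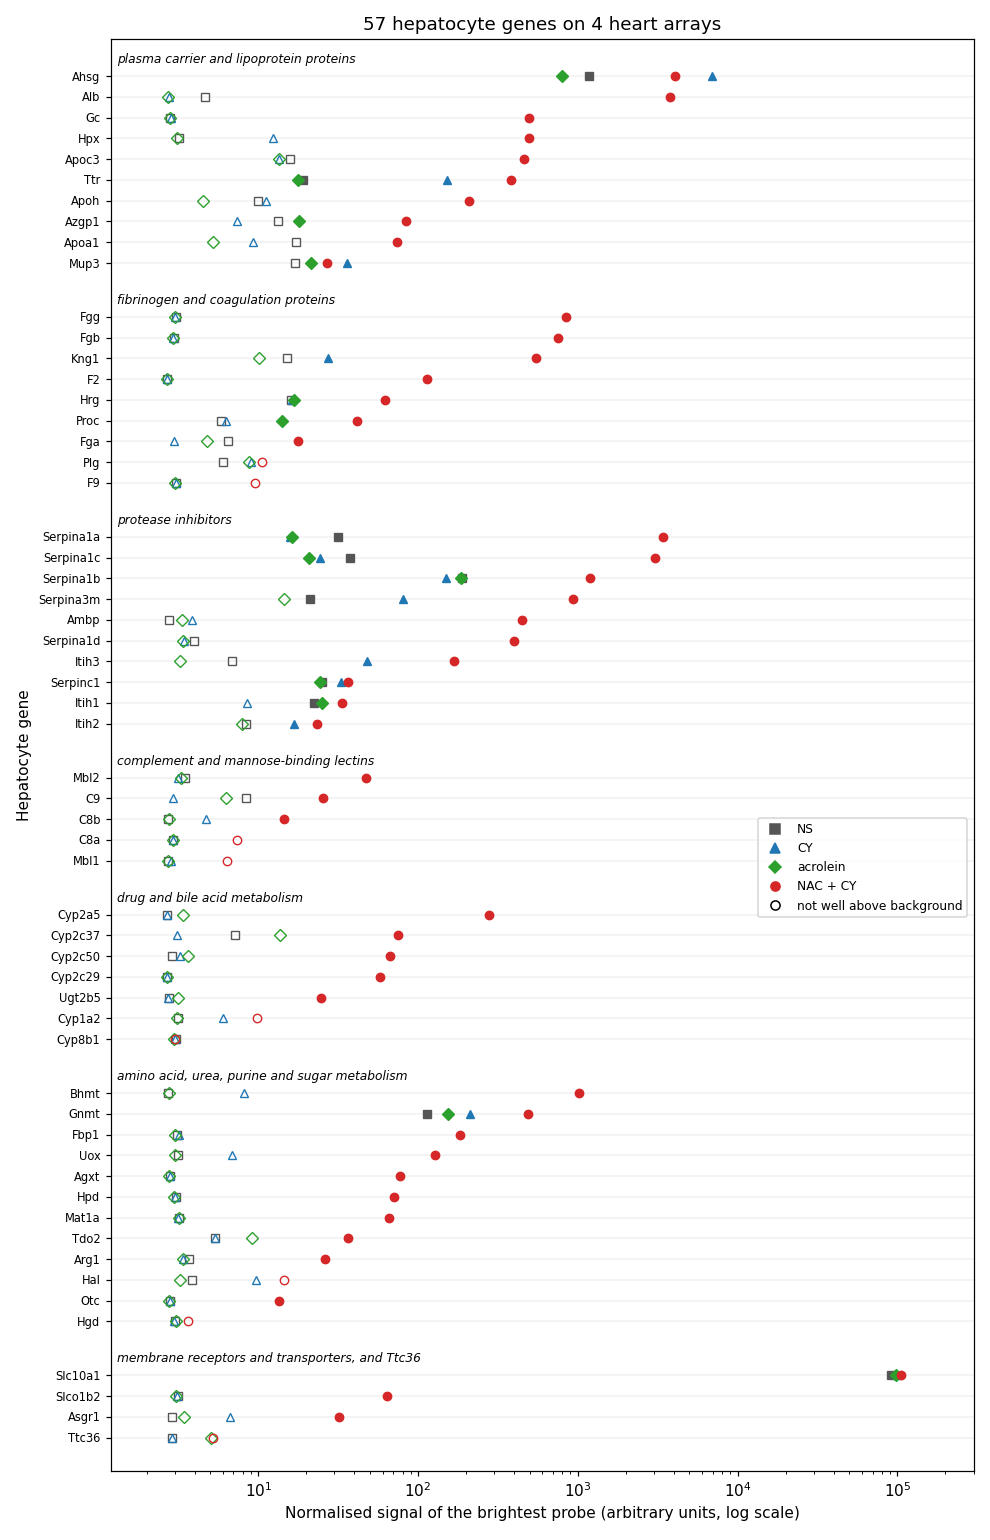
Normalised signal of the brightest probe (x axis, arbitrary units, log scale) of each of the 57 hepatocyte genes (y axis, grouped by role) on the NS, CY, acrolein and NAC + CY arrays. Filled symbols are well above background and open symbols are not. In most rows the NAC + CY symbol is filled and lies to the right of the others. Ahsg and Mup3 are among the exceptions, and the 4 symbols of Slc10a1 lie close together.

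Promoters of genes that were below detection on CY and far above it on NAC + CY are shown so that the motifs of liver transcription factors, by which hepatocyte genes are known to be controlled, can be seen in place. Promoter sequences were those of RefSeq on mouse build GRCm38.p6, with an entry for 49 of the 58 genes. The 150 bases before the start are given 5′ to 3′ in the direction of transcription for the 5 genes with the highest bounds over CY (genes measured on both arrays, such as Serpina1a, were not ranked with them), with matches to the motifs in capitals. Alb lies at chr5:90460720-90460869 on the plus strand, Bhmt at chr13:93637759-93637908 on the minus strand, Fgg at chr3:83007574-83007723 on the plus strand, Fgb at chr3:83049864-83050013 on the minus strand and Gc at chr5:89457899-89458048 on the minus strand.
Alb: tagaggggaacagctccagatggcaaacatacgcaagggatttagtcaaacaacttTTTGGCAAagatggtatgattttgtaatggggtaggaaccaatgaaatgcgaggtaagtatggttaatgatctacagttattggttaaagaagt
Bhmt: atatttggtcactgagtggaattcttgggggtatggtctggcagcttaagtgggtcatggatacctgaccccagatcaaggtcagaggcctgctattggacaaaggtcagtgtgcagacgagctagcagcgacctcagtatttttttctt
Fgg: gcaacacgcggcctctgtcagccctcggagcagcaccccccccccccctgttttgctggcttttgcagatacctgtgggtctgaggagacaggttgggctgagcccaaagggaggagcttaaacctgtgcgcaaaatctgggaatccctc
Fgb: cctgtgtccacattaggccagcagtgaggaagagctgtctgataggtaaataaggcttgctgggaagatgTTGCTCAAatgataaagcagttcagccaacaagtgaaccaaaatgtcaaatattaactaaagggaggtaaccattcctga
Gc: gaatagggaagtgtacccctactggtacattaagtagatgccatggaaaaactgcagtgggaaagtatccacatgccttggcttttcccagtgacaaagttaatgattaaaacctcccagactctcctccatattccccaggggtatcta

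The motifs were a core of the HNF4 site (CAAAGTCCA) and a core of the C/EBP site (TTGCNNAA), searched on both strands in the 250 bases before the start, and neither contains the other. HNF4 (Hnf4a) and C/EBP (Cebpa) are transcription factors of the liver. The C/EBP core was found in 19 of the 49 genes with an entry, among them Ahsg, Alb, Fga, Fgb, Hpx, Serpina1b and Serpina1d, which was 37.3% of their promoters beside 9.56% of all 32851 promoters. The HNF4 core was found in Cyp8b1 alone, 1.96% of the promoters beside 0.384% of all. In the stretches shown, Alb and Fgb held the C/EBP core, and Bhmt, Fgg and Gc held neither motif as spelled here. Only these letters were searched, so sites of the same factors with other letters were not counted. A match is a description of the sequence and was not tied to the signals.

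Of the 16 probes of plasma carriers and lipoprotein proteins, 15 were well above background on NAC + CY. Alb encodes albumin, the main carrier protein of plasma. Its brightest probe (mm9 chr5:90905550-90905609) read 4.62 on NS, 2.77 on CY and 2.73 on acrolein but 3767 on NAC + CY, at least 294-fold above CY and at least 355-fold above NS. A separate Alb probe read 3.18, 3.16, 3.21 and 1752, at least 137-fold above CY. Both Alb probes were thus at background on 3 arrays and bright on the fourth. Gc, the vitamin D binding protein, read 2.81 on NS, 2.83 on CY and 2.82 on acrolein but 496.6 on NAC + CY, at least 38.7-fold above CY. Hpx encodes hemopexin, which binds free heme, and read 3.19, 12.3, 3.11 and 493.8 in the same order, at least 38.5-fold above CY. Apoh, a phospholipid-binding glycoprotein, read 9.97, 11.2, 4.53 and 208.7, at least 16.3-fold above CY. Apoa1, the main protein of high-density lipoprotein, read 17.3 on NS, 9.23 on CY and 5.22 on acrolein but 74 on NAC + CY, and the NAC + CY signal alone was well above background. Azgp1, a zinc-binding plasma glycoprotein, read 13.3, 7.33, 18 and 83.5, and was well above background on acrolein as well as on NAC + CY.

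Ttr and Ahsg had another pattern, since both were also high on CY. Ttr encodes transthyretin, a carrier of thyroid hormone and of retinol-binding protein. Its brighter probe read 19.1 on NS, 151.4 on CY and 17.8 on acrolein, and 383.7 on NAC + CY, well above background on all 4 arrays. The ratio of CY to NS was 7.91 and that of NAC + CY to CY was 2.53. Its other probe was at background on every array, between 3.06 and 4. Ahsg encodes fetuin-A, a plasma inhibitor of mineralisation. It read 1169 on NS, 6965 on CY and 799.2 on acrolein, and 4071 on NAC + CY. It was 5.96-fold higher on CY than on NS, and NAC + CY stood at 0.585 of the CY signal, which made Ahsg the only one of the 57 genes called lower in that comparison.

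Fibrinogen, the clotting protein of plasma, is built of 3 chains encoded by the neighbouring genes Fga, Fgb and Fgg. Fgb read 2.97 on NS, 2.94 on CY and 2.92 on acrolein but 747.7 on NAC + CY, at least 58.3-fold above CY. Fgg read 3.06, 3.01, 2.99 and 842.6 in the same order, at least 65.7-fold above CY. Fga had 2 probes. Both were well above background on NAC + CY alone, at 39.5 and 17.9, at least 3.08-fold and at least 1.39-fold above CY. Signals of different probes are not levels that can be set against each other. F2, prothrombin, read between 2.69 and 2.7 on NS, CY and acrolein and 113.9 on NAC + CY, at least 8.87-fold above CY. F9, coagulation factor IX, and Plg, plasminogen, were not well above background on any array, with NAC + CY signals of 9.54 for F9 and of 2.72 and 10.5 for the 2 Plg probes.

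Kng1 encodes kininogen, the precursor of bradykinin. Its brightest probe read 15.1 on NS, 27.4 on CY and 10.1 on acrolein but 550.7 on NAC + CY, a ratio of 20.1 to CY, where it was also well above background. Another probe of Kng1 reached 81.4 on NAC + CY, at least 6.35-fold above CY, and the last one was at background on all arrays. Hrg, the histidine-rich glycoprotein, read 16, 16.3, 16.7 and 61.9, a ratio of 3.81 to CY. Proc, the anticoagulant protein C, read 5.85, 6.28, 14.1 and 41.5, at least 3.23-fold above CY, and was well above background on acrolein and NAC + CY.

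Among the protease inhibitors, Serpina1a to Serpina1d encode alpha-1-antitrypsins, the main inhibitors of elastase in plasma. These genes are close copies of each other, and the probes were compared first. The probe read for Serpina1a shared a run of 47 of its 60 bases with the Serpina1c probe and a run of 29 bases with a probe of Serpina1e, and the other Serpina1a probe shared a run of 26 bases with the Serpina1b probe. The Serpina1d probe shared no run of over 7 bases with any of them. The first 30 bases of each probe (for the other Serpina1a probe the last 30) are shown with the run shared within the pair in capitals, at mm9 chr12:105091819-105091878, chr12:105133165-105133224, chr12:105091979-105092038, chr12:104966520-104966579 and chr12:105002930-105002989 in this order.
Serpina1a: taaaATGTCATCCTTCCTTCTGAATTGGGT
Serpina1c: tgaccaccctaagATGTCATCCTTCCTTCT
Serpina1a, other probe: aatgGTTCCTATGTCTATGCCCCCTATCCT
Serpina1b: ttgaagccGTTCCTATGTCTATGCCCCCTA
Serpina1d: aaactataacttgaagacactcatgagtcc

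Serpina1a read 31.7 on NS, 15.8 on CY and 16.3 on acrolein but 3425 on NAC + CY on the probe that overlaps Serpina1c, a ratio of 217 to CY. Serpina1c read 37.5, 24.2, 20.7 and 3044, a ratio of 126. Because the probes share most of their bases, these values are not separate measurements of separate genes. On the other Serpina1a probe the signals were 14, 11.9, 6.21 and 350.3, at least 27.3-fold above CY. Serpina1b read 187.3, 150.3, 187 and 1201, a ratio of 7.99 to CY, and was well above background on all 4 arrays. Serpina1d read 3.97, 3.41, 3.38 and 397.5, at least 31-fold above CY, so the probe with no long shared run also was bright on NAC + CY alone. Serpina1a and Serpina1c were the 2 genes called lower on acrolein than on NS, at 0.515 and 0.552 of the NS signal.

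The other inhibitors differed in which arrays detected them. Ambp, the precursor of alpha-1-microglobulin and bikunin, read 2.78 on NS, 3.87 on CY and 3.31 on acrolein but 448.3 on NAC + CY, at least 34.9-fold above CY. Serpina3m, an antichymotrypsin-like serpin, read 20.9, 80.7, 14.5 and 929.9, and was well above background on NS and CY too. Its ratio was 3.85 for CY to NS and 11.5 for NAC + CY to CY. Itih3, a heavy chain of the inter-alpha-trypsin inhibitor that binds hyaluronan, read 6.81, 48, 3.26 and 169, at least 4.52-fold above NS on CY and 3.52 times the CY signal on NAC + CY. Itih2 and Itih1, heavy chains of the same inhibitor, had NAC + CY signals of 23.2 for Itih2 and 33.4 for Itih1. Itih2 was not called in any comparison, and Itih1 was at least 2.6-fold above CY but read 22.2 on NS. Serpinc1, antithrombin, had a probe at 6.69, 3.05, 3.12 and 199.4, at least 15.5-fold above CY, and a second one that was flat, with 25, 32.9, 24.4 and 36.5.

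Complement components and mannose-binding lectins act in innate defence. Of their 7 probes, 3 were well above background on NAC + CY and 0 on the other arrays. Mbl2, a mannose-binding lectin, read 3.5 on NS, 3.16 on CY and 3.29 on acrolein but 46.9 on NAC + CY, at least 3.66-fold above CY. C9, the pore-forming component of the membrane attack complex, reached 25.5 on NAC + CY, at least 1.99-fold above CY, and C8b, the beta chain of component 8, reached 14.5, at least 1.13-fold above CY. Neither was called. C8a and Mbl1 were not well above background anywhere, with NAC + CY signals of up to 7.39.

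Of the genes of drug and bile acid metabolism, none was well above background on NS, CY or acrolein. Cyp2a5, a cytochrome P450 that oxidises coumarin and nicotine, read 2.68 on NS, 2.69 on CY and 3.38 on acrolein but 277.3 on NAC + CY, at least 21.6-fold above CY. The Cyp2c genes encode cytochromes P450 of drug and fatty acid oxidation. Cyp2c29 reached 57.6 on NAC + CY, Cyp2c37 75.5 and Cyp2c50 66.7, at least 4.49-fold, 5.88-fold and 5.2-fold above CY, and a separate Cyp2c50 probe stayed at 3.3. Ugt2b5, a glucuronosyltransferase, reached 24.8, at least 1.93-fold above CY, and was not called. Cyp1a2, which clears caffeine, and Cyp8b1, the sterol hydroxylase that makes cholic acid, were not well above background, with NAC + CY signals of 9.76 and 2.99.

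The enzymes of amino acid, urea, purine and sugar metabolism included Bhmt, which methylates homocysteine to methionine and had the highest bound of the group. Its brightest probe read 2.71 on NS, 8.2 on CY and 2.77 on acrolein but 1023 on NAC + CY, at least 79.8-fold above CY. Another Bhmt probe reached 146.9, at least 11.4-fold above CY, and the last one stayed at background. Fbp1, a fructose bisphosphatase of gluconeogenesis, read 3.08, 3.18, 2.99 and 183.2, at least 14.3-fold above CY. Uox, the urate oxidase, read 3.14, 6.81, 3.01 and 128.1, at least 9.98-fold above CY. Agxt, Hpd, Mat1a and Tdo2 act on glyoxylate, tyrosine, methionine and tryptophan, and were well above background on NAC + CY alone. Their NAC + CY signals were 76.8 for Agxt, 70.8 for Hpd, 65.4 for Mat1a and 36.6 for Tdo2, with bounds over CY from at least 2.85-fold (Tdo2) to at least 5.99-fold (Agxt). Arg1 and Otc, enzymes of the urea cycle, were near the detection limit on NAC + CY, with 26.1 and 13.4, and were not called. Gnmt, a glycine methyltransferase, was well above background on all arrays, with 114.6, 210.9, 153.4 and 491.6 and a ratio of NAC + CY to CY of 2.33. Hal and Hgd, enzymes of histidine and tyrosine breakdown, were not well above background on any array.

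Slco1b2, an organic anion transporter of the sinusoidal membrane, read 3.16 on NS, 3.12 on CY and 3.08 on acrolein but 64.3 on NAC + CY, at least 5.01-fold above CY, and a separate probe stayed at background. Asgr1, a subunit of the asialoglycoprotein receptor, reached 32.1, at least 2.5-fold above CY. Ttc36, a tetratricopeptide repeat protein, was not well above background on any array.

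Slc10a1, the bile acid uptake transporter of hepatocytes, had probes that disagreed. The brightest read 91270 on NS, 100300 on CY and 98140 on acrolein, and 105300 on NAC + CY, and a ratio of 1.05 between NAC + CY and CY. The other read 3.2, 3.14, 3.21 and 22.3, well above background on NAC + CY alone, at least 1.73-fold above CY. Slc10a1 was thus counted as detected on NS, CY and acrolein, and read in each comparison below, through the bright probe. Whether the signal of that probe comes from Slc10a1 transcripts was not tested. The first 30 bases of the bright probe (mm9 chr12:82056539-82056598) are shown because it shared a run of at least 20 bases with a probe of another gene, Sppl2a, a name chosen after the values were seen, which was well above background on all arrays too. Such a run with a probe of another gene name was also found for 4 probes of Serpina1a, Serpina1b and Serpina1c. No other probe of the 57 genes had one. Probes were compared only with other probes, so a match to another part of a related transcript was not looked for. This limit applies to the Mup, Cyp2c and Serpina1 probes too.
Slc10a1: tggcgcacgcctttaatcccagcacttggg

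**Figure D2:**
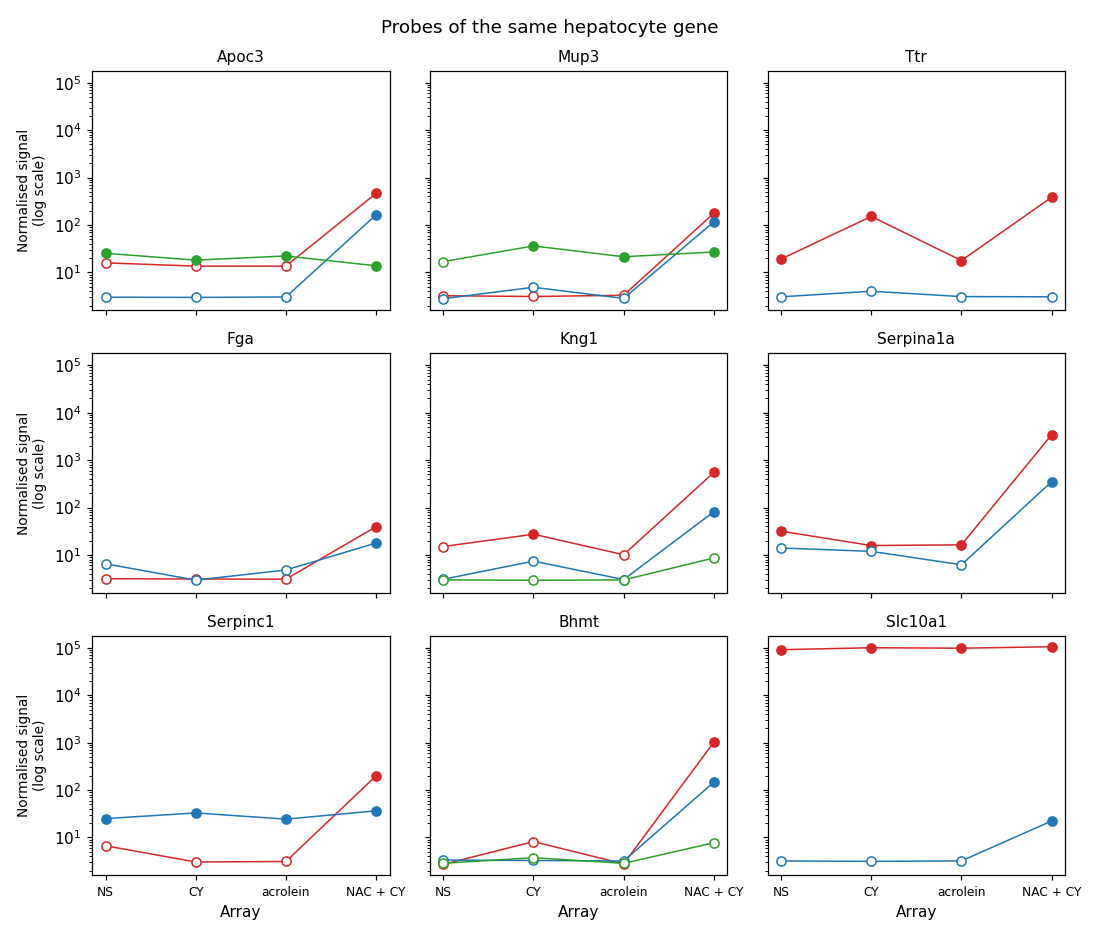
Normalised signal (y axis, arbitrary units, log scale) of every probe of 9 hepatocyte genes with several probes on the 4 arrays (x axis). Each line is 1 probe, filled circles are well above background and open circles are not. Apoc3, Mup3, Serpinc1 and Slc10a1 each had a probe that was not called in any comparison and another that was well above background on NAC + CY alone. For Slc10a1 the latter read 22.3 on NAC + CY and was not called either.

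The same disagreement was seen in Apoc3 and Mup3. Apoc3 encodes apolipoprotein C-III, an inhibitor of lipoprotein lipase, and had 3 probes. The brightest read 15.9 on NS, 13.6 on CY and 13.6 on acrolein but 464.1 on NAC + CY, another read 163.1 on NAC + CY and from 2.97 to 3.03 elsewhere, and the last read 25.3, 18.2, 22.2 and 13.8. Mup3, a major urinary protein that carries pheromones, read 176.9 and 116.7 on NAC + CY on probes that were at background elsewhere, whereas its representative probe read 16.9, 36.1, 21.4 and 27. Calls of a gene below use its brightest probe by mean log2 signal. Mup3, Serpinc1 and Fga therefore count as not called between NAC + CY and CY, although another probe of each was called higher. Neither probe of Slc10a1 was called.

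The criteria of the study's methods were then applied to each pair of arrays. A gene was called higher where its ratio reached 1.5 and its intensity-based Z-score reached 2, and lower where the ratio was 0.66 or below and the Z-score -2 or below. The Z-score is the distance of a log2 ratio from that of the 200 probes nearest in signal, in units of their SD. For NAC + CY against CY, 48 of the hepatocyte genes could be read, 37 were called higher and 1 lower, beside 1.54% and 2.82% of the 20083 genes tested. For NAC + CY against NS, 36 of 48 were called higher and 0 lower, beside 2.68% and 2.59% of the 19808 genes tested. The median log2 ratio over these 48 genes was 4.06 against CY and 4.36 against NS, beside 0.02 and -0.01 over all genes. With signals below detection raised to the lowest signal well above background, an alternative chosen after seeing the data, the medians were 2.42 and 2.67. These contrasts are among those that chose the genes.

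Fewer of these genes could be read in CY against NS and in acrolein against NS. For CY against NS, 15 genes could be read, 4 were called higher and 0 lower, beside 3.38% and 2.81% of the 19721 genes tested. Their median log2 ratio was 0.86, beside -0.02 over all genes. The 4 called higher were Ttr, Ahsg, Serpina3m and Itih3, all described above. For acrolein against NS, 14 genes could be read, 0 were called higher and 2 lower, beside 1.08% and 1.29% of the 19705 genes tested. Their median log2 ratio was 0.03, beside 0.01 over all genes. The 2 lower genes were Serpina1a and Serpina1c, whose probes share a run of 47 bases, and neither was called with a Z-score of 3, a ratio of 2 or normexp background correction.

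**Figure D3:**
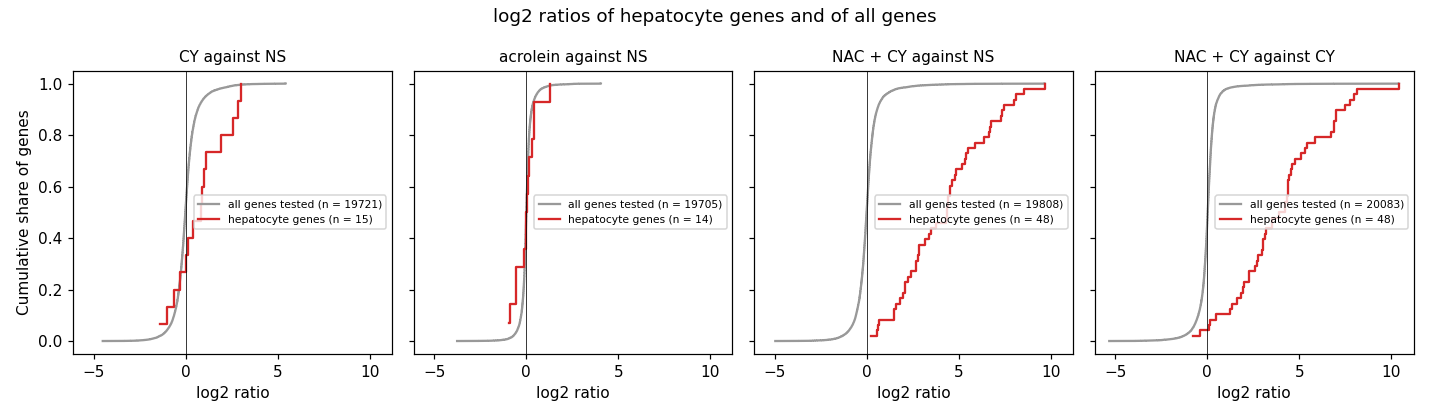
Cumulative share of genes (y axis) by log2 ratio (x axis) in the 4 comparisons, for all genes tested and for the hepatocyte genes, each by its brightest probe and with signals below detection left as read. In the panels of NAC + CY the hepatocyte curve is shifted to a median of 4.36 (against NS) and 4.06 (against CY), and in the panel of acrolein its median is 0.03.

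A further 112 hepatocyte genes that were not among the 58, also listed with results of these data known, were read in the same way. On NAC + CY 81 of them were well above background, beside 48 on NS, 53 on CY and 48 on acrolein. Of 81 read between NAC + CY and CY, 42 were called higher and 1 lower, beside 1.54% and 2.82% of all genes, with a median log2 ratio of 1.25. Against NS, 47 of 81 were called higher on NAC + CY and 0 lower, beside 2.68% and 2.59%. On CY, 18 of 54 were called higher than on NS and 4 lower, beside 3.38% and 2.81%, so hepatocyte genes of this list were also called higher on CY. On acrolein 1 of 49 was called higher than on NS and 5 lower, beside 1.08% and 1.29%. The 6 with the largest log2 ratios as read, an order that rests on CY signals below detection, were Serpina1e, an alpha-1-antitrypsin, Mug1, a murinoglobulin, Apoa5, an apolipoprotein, Serpinf2, the inhibitor of plasmin, Serpina3k, the kallikrein-binding protein, and Cyp2c54, a cytochrome P450. Serpina1e read 30.8 on NS, 14.3 on CY and 15.8 on acrolein but 2458 on NAC + CY, at least 172-fold above CY. A probe of Serpina1e shared a run of 29 bases with the probes read for Serpina1a and Serpina1c. Whether the Serpina1e signal is separate from theirs was not tested. The other 5 of the 6 were well above background on NAC + CY alone, at least 5.5-fold (Cyp2c54) to 12.4-fold (Mug1) above CY. By its bound Slc27a5, a bile acid ligase named after its values were seen, stood above Serpinf2 and Cyp2c54, at least 11-fold above CY. Hnf4a, a transcription factor that defines hepatocytes, read 3.33, 3.21, 3.15 and 41.2, at least 3.21-fold above CY, whereas 6 of the 7 liver transcription factors read in this comparison were not called. By position in the liver lobule, 4 of 10 periportal and 2 of 11 pericentral genes were called higher and none lower. These 2 lists hold some of the 58 genes. The 2 pericentral genes called, Cyp2a5 and Cyp2c29, and the periportal Serpina1b are among the 58, so nothing is read from these counts.

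Hepatic acute-phase genes, which the liver makes in inflammation, went in both directions. Of 12 read between NAC + CY and CY, 6 were called higher and 4 lower, beside 1.54% and 2.82% of all genes. Saa2, a serum amyloid A, read 14.6 on NS, 20.4 on CY and 6.82 on acrolein but 3142 on NAC + CY, a ratio of 154 to CY, and Saa1 read 97, 162.6, 92.5 and 2005. Hamp, the iron hormone hepcidin, read 170.7, 3761, 53 and 286.6, so its NAC + CY signal was 0.0762 of that on CY. In CY against NS, 8 of 12 acute-phase genes were called higher and 0 lower, beside 3.38% and 2.81% of all genes.

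Markers of other liver cells were not called higher on NAC + CY than on CY, beside 1.54% of all genes called higher and 2.82% lower. Many of these markers were already well above background on NS. The counts there were 6 of 8 Kupffer, 6 of 8 sinusoidal endothelial, 6 of 7 stellate and 4 of 7 cholangiocyte genes. Their signals in these samples therefore cannot be assigned to liver cells. Of the Kupffer cell markers, the macrophages of the liver, 0 of 8 were called higher and 3 lower than on CY, and Vsig4, a complement receptor that marks them, read 3.01 on NS, 131 on CY and 2.94 on acrolein, and 8.76 on NAC + CY. Of the sinusoidal endothelial markers 0 of 6 were called higher and 2 lower. Oit3 and Dnase1l3 were not well above background on any array, whereas 6 of the 8 sinusoidal genes were on NAC + CY. Of the cholangiocyte markers 0 of 5 were called higher and 2 lower. Epcam was not well above background on any array, whereas 5 of the 7 cholangiocyte genes were on NAC + CY. For the stellate cell markers the counts were 0 higher and 1 lower of 5. The summed signal of the 8 Kupffer markers was 1701 on NS, 3401 on CY and 1542 on acrolein, and 1945 on NAC + CY, and that of the 8 sinusoidal markers was 2283, 3908, 2242 and 2111. Both sums were highest on CY.

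Other gene lists also differed between NAC + CY and CY, and their part in the hepatocyte signals was not tested. In that comparison 1.54% of all genes were called higher and 2.82% lower. The summed signal of 9 adipocyte genes was 54880 on NS, 62210 on CY and 53370 on acrolein, and 73940 on NAC + CY. Of these genes, 6 were called higher and 0 lower on NAC + CY than on CY, with ratios of 6.53 for Ucp1, the uncoupling protein of brown fat, 4.1 for Car3 and 2.23 for Plin1. On acrolein 7 of the 9 adipocyte genes were called lower than on NS and 0 higher, beside 1.29% and 1.08% of all genes. Their median log2 ratio was -2.04 there, which the sum does not show. The summed signal of 6 erythroid genes was 202300, 198300, 154300 and 83050 in the same order, and all 4 that were read were called lower, at 0.314 (Hbb-bt) to 0.434 of the CY signal. The 6 lung epithelium genes summed to 907.3, 851.5, 534 and 469.9. Of these, Scgb1a1, a secretory protein of club cells, read 328.6 on NS, 313.8 on CY and 29.8 on acrolein, and 10.5 on NAC + CY, and Sftpc, a surfactant protein, read 38.1, 31.4, 2.82 and 2.85. Of 6 exocrine pancreas genes read, 0 were called higher than on CY and 1 lower, and of 4 kidney tubule genes 0 were called higher and 2 lower. Of 3 intestine genes read, 1 was called higher and 0 lower, namely Apoa4, an apolipoprotein that the liver also makes, at least 4.13-fold above CY.

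**Figure D4:**
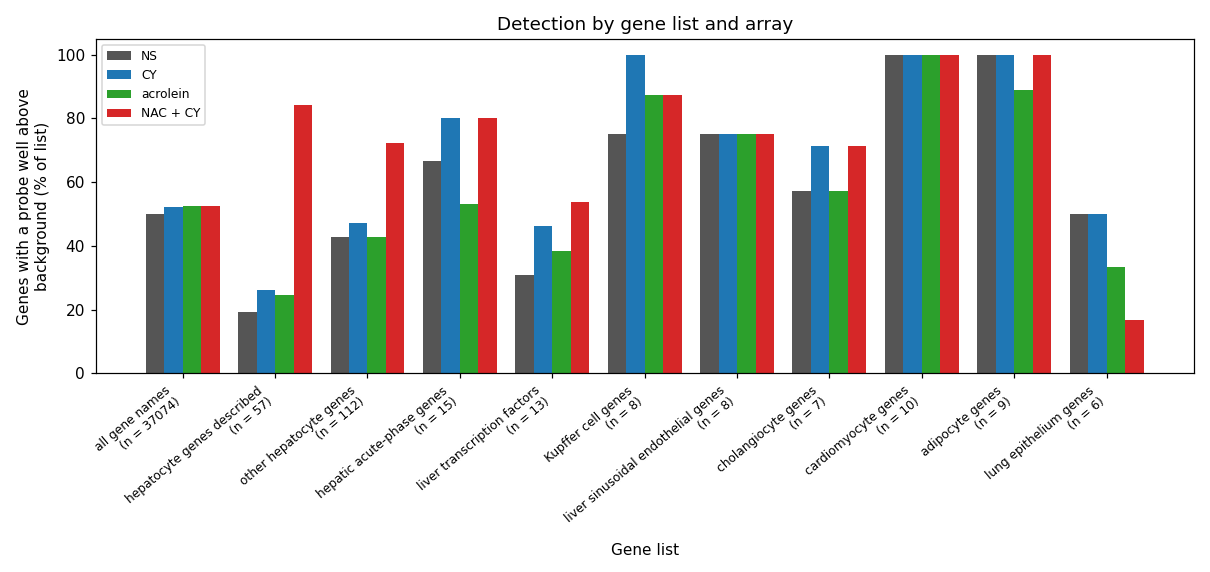
Share of the genes of each list with at least 1 probe well above background (y axis, %, from 0) on the 4 arrays, for all 37074 gene names, the 57 hepatocyte genes described, a further 112 hepatocyte genes and lists of other cell types (x axis, n genes each). The NAC + CY bar of the 57 genes is at 84.2% beside 19.3% on NS, and the cardiomyocyte bars are at 100% on every array.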

How the data were processed

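RNA of mouse hearts was measured on 4 Agilent arrays. The authors scanned the arrays with Agilent Feature Extraction, for which the submitters' processing notes give version 9.5.1.1 and the scanner files 10.7.1.1. Per the file headers, the intensity of each spot is a signal after background subtraction, before any normalisation. The authors' deposited value table holds linear intensity signals of the same arrays with a median of 13.9 on each array. Although 3 independent studies are mentioned in the series text, each condition has 1 array here. Log2 signals of the non-control spots were quantile-normalised over the arrays and averaged per probe. Probes were compared where at least 1 of the 2 arrays gave a P flag, which is a signal positive and significant, well above background, and free of outlier and saturation flags. The ratios and Z-scores were computed over all probes, and a gene took the probe with the highest mean log2 signal among those with a P flag on any of the 4 arrays. Where that probe had no P flag on either array of a pair, the gene was not read there, as with Apoc3 in CY and acrolein against NS. The calling was tested on simulated data in which only probes that were flagged and bright on NS were changed. Calls of probes near or below detection were not simulated. No p-value was computed.

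The 58 genes, the other gene lists and the motifs were chosen with earlier results of these data known. Any of the 58 may be named. Of other lists, up to 6 further hepatocyte genes and up to 3 genes of each list with the largest log2 ratios of NAC + CY against CY are named, and defining markers below background. Gene names and probe positions (mm9) are those of the array files, and promoters are RefSeq entries on GRCm38.p6. Protein sequences were not used here. A further motif is not reported here. Alternatives covered 75th percentile scaling, normexp background correction with an offset of 50, no P flag, a window of 100 probes, a Z-score of 3, a ratio of 2, the authors' value table and the median over probes. The software was limma 3.58.1 in R 4.3.3 and, in Python 3.11.15, matplotlib 3.10.9, pandas 2.3.3, scipy 1.17.1 and numpy 2.4.6. Precision is limited by the number of arrays.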

Additional observations from a re-analysis of the deposited data

How the results depend on the processing

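The counts of hepatocyte genes called higher stayed within 1.5 times under every alternative run: 32 to 39 for NAC + CY against NS, 33 to 41 against CY and 4 throughout for CY against NS. The 2 genes called lower on acrolein became 0 under normexp, a Z-score of 3 and a ratio of 2, and the 1 called lower against CY (Ahsg) became 0 under a Z-score of 3 and a ratio of 2. The median log2 ratios moved more, and the cause was not tested. Under normexp, which adds an offset of 50, the median was 0.22 for CY against NS, 1.38 for NAC + CY against NS and 1.05 against CY. With no P flag required, which adds genes below detection, the medians were 0.01, 3.39 and 3.13. With signals at their bound they were 0.67, 2.67 and 2.42. Scaling to the 75th percentile gave 0.91 for CY against NS and 4.20 for NAC + CY against NS, and the median over probes gave 0.63 for CY against NS. No gene that was called changed its direction. With a gene called by any of its probes, an alternative chosen after seeing the data, 40 genes were higher against CY. No paired analysis was possible because each condition has 1 array.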

Other observations

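Of the 57 probes that were well above background on NAC + CY alone and at least 4-fold above the bound of every other array, 30 belong to the 58 genes and 13 to the further hepatocyte list. The remaining 14 lie on neither list, and the genes named here were chosen after their values were seen. Mup21, a major urinary protein, read 615.8 on NAC + CY, at least 46.5-fold above the bound of each other array. Cyp3a41a and Cyp2a4, cytochromes P450, read 278.1 and 150.2. Fabp1, the fatty acid-binding protein of liver, read 198.6, and Apoa4, an apolipoprotein of intestine and liver, read 53. Elovl3, a fatty acid elongase of skin, brown fat and liver, read 54.9, and Mfsd2a, a transporter of lysophosphatidylcholine, read 98.9. Pon1, the paraoxonase of plasma lipoproteins, read 59.2, and Cyp2c67, Cyp2c68 and Mup5 read 65.2, 63.1 and 68.4. Of the 14 probes, 3 carry a transcript identifier and no gene name.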
